A study of Mus musculus with 76 samples.

Results

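RNA of whole ovaries was compared between female house mice that carried a t haplotype on 1 of their chromosomes 17 (genotype +/t) and their wild-type sisters (genotype +/+). The members are all ovary libraries of the series, 14 of 76: 7 of +/t and 7 of +/+ females, which the labels join into 7 sister pairs from 7 litters. The pairs bear the numbers 1 to 6 and 8 in the labels. The animals were Mus musculus domesticus bred and raised in a laboratory up to sexual maturity, with ancestors caught at Illnau, Switzerland. The labels give neither the stage of the estrous cycle nor the age in days, and no treatment is named. Brain, liver and testis of +/t and +/+ mice made up the rest of the series, and most of the females in the ovary pairs also gave brain and liver. Each +/t female was heterozygous, and the count of a gene does not separate reads of her t haplotype from those of her wild-type chromosome 17.

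A t haplotype is a block of proximal chromosome 17 whose inversions suppress recombination with the wild-type chromosome, so that the genes on it are inherited together. It is known for transmission ratio distortion in males: distorter genes on the t haplotype act on sperm signalling, and a responder gene spares the sperm that carry it. Females transmit it in Mendelian proportion, and the ovary is therefore a reproductive tissue in which the haplotype is expressed without that drive. An adult ovary holds oocytes enclosed by granulosa cells, theca cells that supply androgen, corpora lutea that make progesterone after ovulation, stroma, vessels and immune cells, and the share of each changes with the estrous cycle.

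The libraries held 9343307 to 23856194 counts and 18440 to 18980 genes with a count. The +/t library of pair 5 had the highest total, and 62.1% of its gene counts between 20 and 500 were even, against 49.4% to 51.1% in the other 13. High even shares also occurred in female brain of +/+ pair 4 (66.9%) and +/t pair 6 (68.1%). In testis they occurred in the carriers of pairs 2 (59.3%) and 3 (59.5%). The cause was not tested. The tissue label fitted its defining genes: Inha, the inhibin alpha subunit of granulosa cells, stood at 1760 to 3100 unscaled CPM (a gene's count relative to the total of its library) in ovary against 11.4 to 18.1 in female brain and 0 to 1.39 in female liver. The male-specific Ddx3y was at 0 in all 14 libraries. Ovgp1, which encodes oviductal glycoprotein, stood at 1320 to 4790 unscaled CPM, and the fat cell gene Adipoq at 48.2 to 249, so genes known from oviduct and fat were detected in every library. As a check of the genotype labels, 79 genes of the t region that were called in testis were also tested in ovary. In each ovary pair 60.8% to 75.9% of them had the sign seen in testis.

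Few genes were called between t carriers and their sisters. Calls rested on the edgeR quasi-likelihood test with the sister pair as a block, at a p under 0.05 after Benjamini-Hochberg adjustment. Of 15324 genes tested, 16 were called, which is 0.104% of them: 12 were higher in +/t (0.0783%) and 4 lower (0.0261%). All 16 moved in the same direction in 7 of 7 pairs, and in 13 of them the 7 +/t libraries and the 7 +/+ libraries did not overlap in CPM. Over all tested genes, 0.157% had such non-overlapping groups and 0.992% had the same sign in 7 of 7 pairs. At an unadjusted p under 0.05 there were 381 genes, or 2.49%. That is less than the share of 0.05 that passes on average when no gene differs. Genes that vary together can also move this share, and the cause was not tested. DESeq2, run on the same libraries, called 46 genes. The low count of calls therefore does not show that few genes differ. The ovary is a mixed tissue, so in every result that follows more cells of a type and more RNA per cell cannot be told apart.

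**Figure D1:**
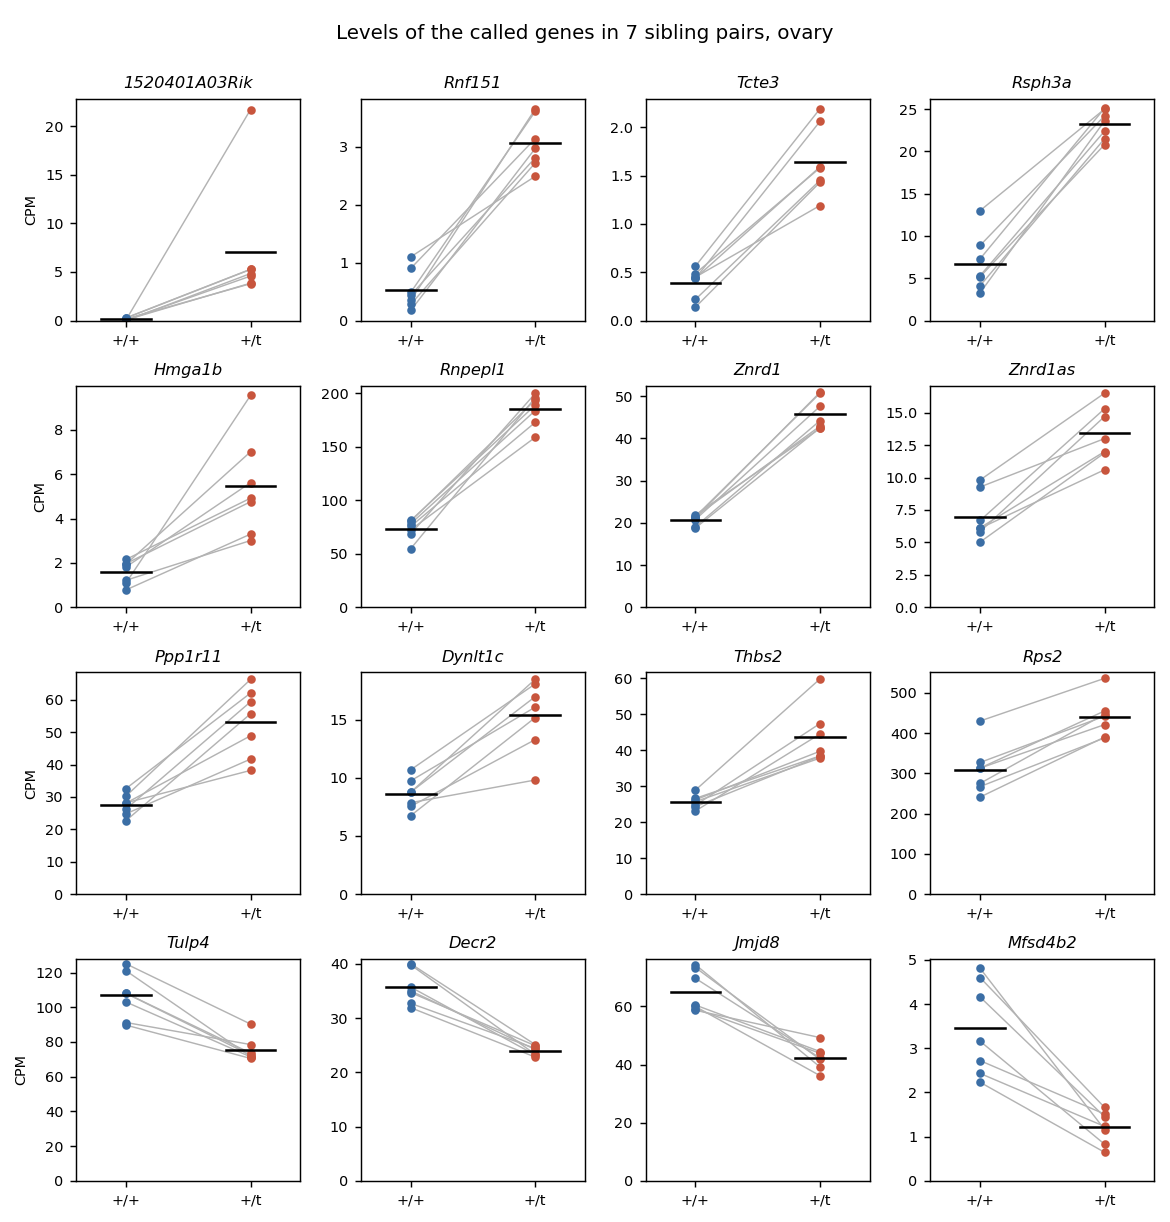
Levels of the 16 called genes in ovary, in CPM on linear axes that start at 0. Points are libraries, grey lines join the +/+ and +/t sister of a pair, and black bars are means over 7 libraries. In each panel all 7 lines run in the same direction, and only Tulp4, Dynlt1c and Rps2 have overlapping groups.

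The called genes lay mostly on the proximal part of chromosome 17. The t region was taken as the first 40 Mb of chromosome 17 in GRCm38. It held 450 tested genes, of which 13 were called (2.89%), 10 higher and 3 lower, against 3 of the 14874 tested genes outside it (0.0202%). The share of genes with an unadjusted p under 0.05 was 52.9% of 34 genes from 0 to 10 Mb, 37.5% of 40 genes from 10 to 20 Mb, 19.4% of 196 genes from 20 to 30 Mb and 17.8% of 180 genes from 30 to 40 Mb. From 40 to 50 Mb the share was 1.18% of 85 genes, close to the 1.85% of the 14592 genes on the other chromosomes and without position. The median absolute log2 fold change dropped along with it, from 0.26 in the first 10 Mb to 0.06 between 40 and 50 Mb. Beyond 50 Mb the share with an unadjusted p under 0.05 was highest from 80 to 90 Mb, at 8.16% of 49 genes. No gene was called there. Within the t region 57 of 450 genes (12.7%) had the same sign in all 7 pairs, 32 higher and 25 lower, compared with 95 of 14874 (0.639%) elsewhere. The median log2 fold change of the t region was 0.01, so genes of the region were spread to both sides of 0 and not shifted one way.

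**Figure D2:**
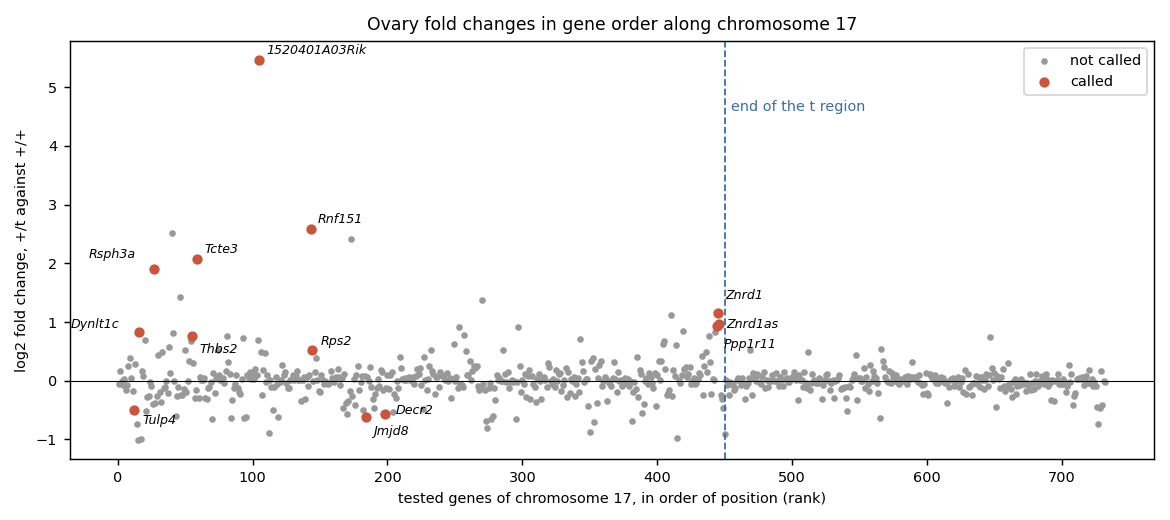
Log2 fold change of +/t against +/+ in ovary for each tested gene of chromosome 17, placed by its rank in order of position. Red points are called genes, grey points are not called, and the dashed line marks the end of the t region. The 13 called genes, with log2 fold changes from -0.62 (Jmjd8) to 5.47 (1520401A03Rik), all lie left of the line, and the points are less spread to its right.

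Of the called genes, 3 sit side by side within the MHC part of the t region and rose together. Znrd1 encodes the small zinc ribbon subunit of RNA polymerase I, which transcribes ribosomal RNA. It lies on the minus strand at chr17:36954356-36958559 (ENSMUSG00000036315). Its level was 18.8 to 21.9 CPM in +/+ with a median of 21.2, and 42.4 to 50.9 in +/t with a median of 44.2. The lowest carrier thus stood clearly above the highest wild-type sister, and the values hardly varied within a genotype. The log2 fold change was 1.15 ± 0.07 (SE, edgeR adjusted p = 0.000194). Znrd1as, the gene on the opposite strand that begins beside it (chr17:36958592-36965625), stood at 5.03 to 9.81 CPM in +/+ and 10.6 to 16.5 in +/t. Its log2 fold change was 0.96 ± 0.13 (edgeR adjusted p = 0.0304), again without overlap. Znrd1as overlaps Gm27735 on the opposite strand and matches Gm9086 at 91.1% over 573 bases, and whether strand was used in counting is not given, so its reads are uncertain. Ppp1r11, an inhibitory subunit of protein phosphatase 1 (minus strand, chr17:36948356-36951741), had 22.7 to 32.6 CPM in +/+, median 28.1, and 38.2 to 66.3 in +/t, median 55.7. Its log2 fold change was 0.93 ± 0.10 (edgeR adjusted p = 0.0136). The carriers varied more for Ppp1r11 than for Znrd1, but the ranges stayed apart.

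These neighbours lie close together: 32 bases separate Znrd1 from Znrd1as, which run away from each other, and 2614 bases separate Ppp1r11 from Znrd1. The promoter windows of RefSeq (GRCm38.p6, 250 bases before to 50 bases after the start, written 5′ to 3′ on the gene's strand) are shown because the genes beside them rose together. RefSeq holds 2 windows for Znrd1, of which the first listed is shown. It shares 174 bases with the first listed window of Znrd1as. All windows are reference sequence, not the sequence of these mice or of the t haplotype. Capitals mark matches on either strand to 4 motifs chosen after the sequences were seen. The first was CCAAT, which reads ATTGG in reverse. The second was GGGCGG, which reads CCGCCC in reverse, and the third was TATAAA, which reads TTTATA in reverse. The fourth was TGACGTCA, which is its own reverse.
Znrd1 (minus strand, chr17:36958476-36958775): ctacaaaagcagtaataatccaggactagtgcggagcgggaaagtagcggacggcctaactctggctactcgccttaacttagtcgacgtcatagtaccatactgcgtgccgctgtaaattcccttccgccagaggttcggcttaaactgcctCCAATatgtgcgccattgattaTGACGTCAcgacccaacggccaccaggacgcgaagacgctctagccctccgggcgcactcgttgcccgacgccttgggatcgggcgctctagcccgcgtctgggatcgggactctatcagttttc
Ppp1r11 (minus strand, chr17:36951743-36952042): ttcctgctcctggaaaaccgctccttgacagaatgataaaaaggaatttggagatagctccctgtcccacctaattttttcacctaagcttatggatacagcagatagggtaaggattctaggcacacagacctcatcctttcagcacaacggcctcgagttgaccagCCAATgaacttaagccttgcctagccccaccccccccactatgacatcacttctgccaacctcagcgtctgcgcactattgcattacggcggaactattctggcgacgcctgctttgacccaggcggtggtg
Both windows hold 1 CCAAT, which 37.4% of the 32544 promoter windows of the table hold too. The Znrd1 window also holds TGACGTCA, found in 1.8% of windows.

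A second set of neighbours was Rnf151 and Rps2, whose genes lie 52 bases apart on opposite strands. Rnf151 encodes a RING finger protein known from mouse spermatids (chr17:24715839-24718063). It was scarce in ovary, at 0.175 to 1.1 CPM in +/+ (2 to 10 reads) and 2.49 to 3.65 in +/t (35 to 74 reads). The groups were separate, with a log2 fold change of 2.59 ± 0.33 (edgeR adjusted p = 0.022). Rps2 encodes a protein of the small ribosomal subunit (chr17:24718116-24721929) and had 241 to 430 CPM in +/+, median 313, and 388 to 536 in +/t, median 442. Its groups overlapped, because the +/+ sister of pair 2 at 430 stood above several carriers, though below her own sister at 536. The log2 fold change was 0.52 ± 0.06 (edgeR adjusted p = 0.022), and without the pair block Rps2 was no longer called. Rps2 shares 98.1% identity over 939 bases with the pseudogene Rps2-ps10, and 82 genes in all match its transcripts, so its reads are uncertain. Of the 25 ribosomal protein genes tested, Rps2 was the only called member, beside 0.104% called over all tested genes. The reference windows of this set carried different marks.
Rnf151 (minus strand, chr17:24718008-24718307): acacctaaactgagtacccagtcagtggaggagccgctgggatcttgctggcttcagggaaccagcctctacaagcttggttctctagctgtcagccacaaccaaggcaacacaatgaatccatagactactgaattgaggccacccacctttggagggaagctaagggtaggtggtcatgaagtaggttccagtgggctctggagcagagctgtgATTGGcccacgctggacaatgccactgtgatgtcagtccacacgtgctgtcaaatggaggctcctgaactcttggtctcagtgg
Rps2 (plus strand, chr17:24719813-24720112): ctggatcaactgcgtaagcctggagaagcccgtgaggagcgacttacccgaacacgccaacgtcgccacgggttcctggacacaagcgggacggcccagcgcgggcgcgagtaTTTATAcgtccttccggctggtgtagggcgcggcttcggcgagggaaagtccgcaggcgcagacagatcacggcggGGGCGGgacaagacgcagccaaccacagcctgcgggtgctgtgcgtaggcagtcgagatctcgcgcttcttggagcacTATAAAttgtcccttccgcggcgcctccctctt
The RefSeq start used for the Rps2 window lies inside the gene as GENCODE places it: the window begins 1697 bases past the GENCODE start, and the distance of 52 bases is between GENCODE gene ends, so this window does not lie next to Rnf151. The Rnf151 window holds 1 CCAAT in reverse. The Rps2 window holds 2 matches to TATAAA, found in 13.6% of windows, and 1 to GGGCGG, found in 35.9%. The CG dinucleotide occurs 34 times in the Rps2 window, 28 times in that of Znrd1, 10 times in that of Ppp1r11 and 3 times in that of Rnf151.

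Genes of cilia, flagella and dynein that carry names from the t complex were also among those called. Rsph3a, a radial spoke head protein (chr17:7945614-7979824), stood at 3.28 to 13 CPM in +/+, median 5.31, and 20.8 to 25.1 in +/t, median 23.6. Every carrier was above every wild-type sister, and the wild types were the more scattered group. The log2 fold change was 1.90 ± 0.21 (edgeR adjusted p = 0.0136). Its near copy Rsph3b, 99.4% identical over 1823 bases, had 8.19 to 15 CPM in +/+ and 15.9 to 21 in +/t with a log2 fold change of 0.69 ± 0.13, also without overlap, but was not called (edgeR adjusted p = 0.179). Reads of these copies may have been shared or lost in counting, so the part of each is uncertain.

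Tcte3, a light chain of the outer dynein arm of sperm flagella, was at 0.139 to 0.563 CPM in +/+ (2 to 6 reads) and 1.19 to 2.19 in +/t (18 to 29 reads). The log2 fold change was 2.08 ± 0.27 (edgeR adjusted p = 0.022). The groups did not overlap, but these are few reads, and Tcte3 (chr17:15027152-15041488) overlaps Gm3448, which is 99.0% identical to it over 690 bases. The Dynlt1 genes encode Tctex1-type light chains of cytoplasmic dynein and form a cluster of near copies, whose log2 fold changes had opposite signs. Dynlt1c (chr17:6601671-6609774) had 6.75 to 10.7 CPM in +/+ and 9.82 to 18.5 in +/t, with a log2 fold change of 0.84 ± 0.12 (edgeR adjusted p = 0.0371). Dynlt1f, 99.6% identical to Dynlt1c over 3250 bases, had 12.7 to 31.5 CPM in +/+ and 5.86 to 12.6 in +/t, and a log2 fold change of -0.998 ± 0.189 (edgeR adjusted p = 0.218). Dynlt1b stood at 25.5 to 68.2 CPM in +/+ and 6.44 to 33.3 in +/t (-1.002 ± 0.211, edgeR adjusted p = 0.435) and was lower in 7 of 7 carriers. Dynlt1a had a log2 fold change of -0.74 ± 0.17 (edgeR adjusted p = 0.549) and was lower in 6 of 7. DESeq2, run as a second tool, called Dynlt1b and Dynlt1f lower as well as Dynlt1c higher. Since these copies share most of their sequence, the split of reads among them is uncertain.

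Of the 23 tested t complex named genes, these 3 (Rsph3a, Tcte3 and Dynlt1c) were called, all higher, and the list median was -0.05 against 0.00 over all genes. Of these 23 genes, 22 lie in the t region, where 2.89% of tested genes were called, against 0.104% over all tested genes. The 4 tested genes of the distorter and responder list had no call. Tagap1, a GTPase-activating protein of the distorter system, stood at 15.7 to 29.5 CPM in +/+ and 10.8 to 21 in +/t and was lower in 7 of 7 carriers (-0.52 ± 0.10, edgeR adjusted p = 0.18). DESeq2 called it (adjusted p = 0.00499). Nme3, a nucleoside diphosphate kinase, was at -0.05 ± 0.10, Tiam2, an exchange factor for Rac, at 0.17 ± 0.08, and Fgd2, an exchange factor for Cdc42, at 0.16 ± 0.17. The kinase genes Smok2a and Smok2b were below the filter on low counts, and the responder Smoktcr had no entry under that name.

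The remaining called genes of the t region have varied roles. The RIKEN gene 1520401A03Rik (chr17:23704488-23722783) had by far the largest log2 fold change of the 16, 5.47 ± 0.43 (edgeR adjusted p = 0.000962). The 7 +/+ libraries held 0 to 3 reads of it (0 to 0.281 CPM) and the 7 +/t libraries 46 to 289 reads, with 3.8 to 5.28 CPM in 6 of them and 21.7 in the carrier of pair 8. It was thus next to absent from wild-type ovaries and present in every carrier. At so few wild-type reads the fitted fold depends on the shrinkage that edgeR applies. Thbs2, a secreted thrombospondin known to restrain vessel growth (chr17:14665500-14694235), had 23.1 to 28.9 CPM in +/+, median 25.7, and 37.8 to 59.8 in +/t, median 39.7. The wild types were tightly grouped and all below the carriers, with a log2 fold change of 0.76 ± 0.08 (edgeR adjusted p = 0.0136).

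The 3 genes of the t region that fell had moderate changes. Jmjd8, a JmjC domain protein of the endoplasmic reticulum (chr17:25828867-25831843), had 58.7 to 74.4 CPM in +/+ and 36.2 to 49.3 in +/t, without overlap, and a log2 fold change of -0.62 ± 0.09 (edgeR adjusted p = 0.0409). Jmjd8 overlaps Stub1 on the opposite strand, and whether strand was used in counting is not given; Stub1 itself was at 0.07 ± 0.08 (edgeR adjusted p = 0.999). Decr2, a peroxisomal 2,4-dienoyl-CoA reductase of fatty acid oxidation (chr17:26081208-26090337), had 31.9 to 40 CPM in +/+ and 22.8 to 25.1 in +/t, the carriers being the tighter group. Its log2 fold change was -0.57 ± 0.07 (edgeR adjusted p = 0.0207). Tulp4, a tubby-like protein (chr17:6106437-6251128), had 89.7 to 125 CPM in +/+ and 70.5 to 90.3 in +/t, so that the groups just touched, and a log2 fold change of -0.50 ± 0.07 (edgeR adjusted p = 0.0371). Its call was lost with a minimum count of 50. Transcripts of 1402 other genes match Tulp4, the longest match being Gm2792 at 99.7% over 3158 bases, and genes overlap it on both strands, so its reads are uncertain. Decr2 has 450 such matches, the longest over 170 bases (Plcd4).

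Outside the t region 3 genes were called, each on another chromosome. Rnpepl1, an aminopeptidase-like protein on chromosome 1 (chr1:92910783-92924384), stood at 54.8 to 81.2 CPM in +/+, median 75.7, and at 159 to 200 in +/t, median 189. No carrier came near the wild-type range, and no transcript of another gene matched it. Its log2 fold change was 1.35 ± 0.09 (edgeR adjusted p = 0.000329). Hmga1b, a member of the HMGA family of AT-hook chromatin proteins (chr11:120762794-120764419), had 0.787 to 2.16 CPM in +/+ and 3.01 to 9.55 in +/t, with a log2 fold change of 1.74 ± 0.24 (edgeR adjusted p = 0.0343). Its transcript is 99.8% identical over 1602 bases to that of Hmga1, which lies in the t region on chromosome 17 and was not called (7.59 ± 1.58 CPM in +/+ and 11 ± 5.85 in +/t, SD, n = 7; 0.41 ± 0.22, edgeR adjusted p = 0.999). From which of the 2 genes these reads came is uncertain. Mfsd4b2, of the major facilitator transporter family (chr10:39920382-39926923), had 2.23 to 4.81 CPM in +/+ and 0.644 to 1.66 in +/t, with a log2 fold change of -1.49 ± 0.20 (edgeR adjusted p = 0.0339). It is 90.6% identical over 1280 bases to Mfsd4b1, and both groups were low but separate.

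How firmly a call stood differed among the 16. Rnpepl1, Znrd1 and 1520401A03Rik passed in every alternative in which they were tested, including each of the 7 fits without a pair. The others lost their call in at least 3 of those 7 fits, Mfsd4b2 in all 7. Without pair 6 or without pair 8 only these 3 were called. Their directions never changed, and neither did the log2 fold changes by much: Rsph3a ranged from 1.75 to 2.07 and Ppp1r11 from 0.87 to 1.01 over all alternatives.

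Other genes were separate or nearly separate between the genotypes without a call. H2-M3, an MHC class I molecule that presents formylated peptides, had 7.35 to 18.1 CPM in +/+ and 4.78 to 8.34 in +/t, with a log2 fold change of -0.90 ± 0.14 (edgeR adjusted p = 0.0669). Zfp944, a zinc finger gene, had 17.4 to 26 CPM in +/+ and 8.95 to 14.5 in +/t, without overlap (-0.63 ± 0.10, edgeR adjusted p = 0.0845). Gng13, a G protein gamma subunit, was scarce, at 0.0811 to 2.19 CPM in +/+ and 1.5 to 4.38 in +/t, and higher in 7 of 7 carriers (2.41 ± 0.39, edgeR adjusted p = 0.0928). The +/+ sister of pair 2 was the one wild type that reached the carriers for Gng13, and without that pair the log2 fold change of Gng13 was 2.83 ± 0.37 and passed (edgeR adjusted p = 0.0323). Farther from the threshold, Amdhd2, a deacetylase of amino sugar metabolism, had 18.7 to 28.2 CPM in +/+ and 12.3 to 17.7 in +/t, without overlap (-0.62 ± 0.12, edgeR adjusted p = 0.221). It passed with DESeq2 (adjusted p = 0.0028) and in edgeR without the pair block (adjusted p = 0.0323). H2-M3, Zfp944 and Gng13 were chosen after their values were seen. DESeq2 called 46 genes, the 16 of edgeR among them, 37 in the t region (24 higher, 13 lower).

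MHC genes lie in the t region, and none of them passed in edgeR, beside 2.89% called over the tested genes of that region. Of 15 tested MHC class I genes 9 had an unadjusted p under 0.05, as did 103 of the 450 tested genes of the t region (22.9%), and the class I median was 0.25. H2-D1, a classical class I molecule, had 64.8 to 175 CPM in +/+ and 126 to 219 in +/t (0.33 ± 0.15, edgeR adjusted p = 0.999), and H2-K1 was at -0.21 ± 0.40 (edgeR adjusted p = 0.999). H2-Q2 had 11.4 to 21.4 CPM in +/+ and 15.1 to 27.2 in +/t and was higher in 7 of 7 carriers (0.68 ± 0.14, edgeR adjusted p = 0.291). With DESeq2, 4 class I genes were called: H2-Q2, H2-Q10 and H2-T10 higher, H2-M3 lower. Among 14 class II and antigen processing genes, whose median was 0.14, DESeq2 called only H2-Eb1, which was lower (-0.71 ± 0.18, edgeR adjusted p = 0.885).

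No gene that defines an ovarian cell type was called. The granulosa, theca, corpus luteum, oocyte, stroma, endothelial and surface epithelium lists had no called member in edgeR or DESeq2. Over all tested genes edgeR called 0.104%, so most lists of this size would hold no call. The medians of these lists lay between -0.07 and 0.09 against 0.00 over all genes. Inha had 2160 to 3040 CPM in +/+ and 1780 to 3000 in +/t (-0.05 ± 0.09, edgeR adjusted p = 0.999), so the groups covered nearly the same range. The oocyte genes Padi6 (-0.09 ± 0.14) and Zp2 (-0.09 ± 0.16), needed for the egg cytoplasm and the zona pellucida, also overlapped widely. All 23 oocyte genes lay between -0.23 and 0.12. TGF beta, BMP and activin signalling conveys signals between oocyte and follicle. Its 26 genes had the narrowest spread of pair medians among the 28 lists, from -0.04 to 0.06. Single members varied far more than the median: Bmpr2, a BMP receptor, ran from -1.354 in pair 5 to 0.417 in pair 2. Cell cycle genes had a median of 0.06, with all 16 above 0 and none called. Germline and meiosis genes had a median of -0.14 over 13 genes. A p that misses the threshold does not show that a gene is equal in both genotypes.

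Steroid and luteal genes varied from female to female more than by genotype. The 16 steroidogenesis genes summed to 8300 to 17800 CPM in +/+ and to 5700 to 19900 in +/t, and their median log2 fold change was -0.05. Cyp11a1, which cleaves the side chain of cholesterol, had 2510 to 6700 CPM in +/+ and 1140 to 8160 in +/t (-0.22 ± 0.36, edgeR adjusted p = 0.999). Hsd3b1, which forms progesterone, had 3750 to 7570 CPM in +/+ and 2930 to 7310 in +/t (-0.13 ± 0.14, edgeR adjusted p = 0.999). Corpus luteum markers summed to 1360 to 4550 CPM in +/+ and to 782 to 7340 in +/t. Within a pair the median of the 12 luteal markers ranged from -1.41 in pair 6 to 1.80 in pair 3, and it was above 0 in 3 of 7 pairs. Ptgfr, the receptor through which prostaglandin F2 alpha ends the corpus luteum, ran from 22.6 to 498 CPM in +/+ and from 52 to 812 in +/t. Lhcgr, the receptor of luteinizing hormone, had 187 to 686 CPM in +/+ and 74 to 489 in +/t, and was lower in 6 of 7 carriers (-0.73 ± 0.31, edgeR adjusted p = 0.999).

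**Figure D3:**
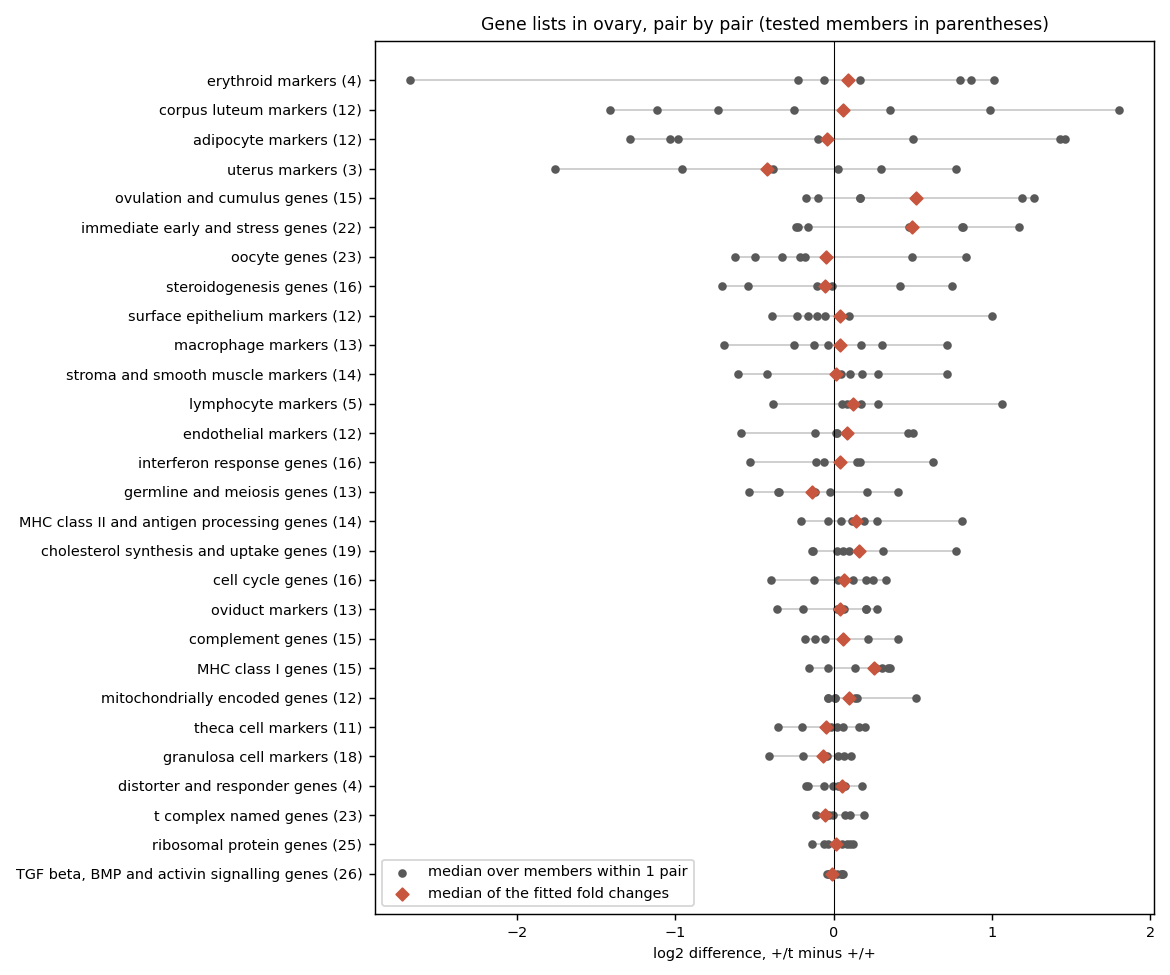
Log2 difference of +/t minus +/+ for 28 gene lists in ovary. Grey points are the median over a list's tested members within each of the 7 pairs, red diamonds the median of the fitted log2 fold changes, and lists are ordered by the spread of their pair medians. Pair medians of luteal markers spread from -1.41 to 1.80 and those of erythroid markers from -2.67 to 1.01. The pair medians of TGF beta, BMP and activin genes stay between -0.04 and 0.06.

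Genes induced around ovulation had the highest list median, 0.52, with 12 of 15 members above 0. None was called, beside 0.104% called over all tested genes. Has2, which makes the hyaluronan of the cumulus matrix, had 0.406 to 1.02 CPM in +/+ and 0.677 to 2.7 in +/t and was higher in 7 of 7 carriers (1.197 ± 0.238, edgeR adjusted p = 0.274). Edn2, endothelin 2 of ovulating follicles, ranged from 0.63 to 17.9 CPM in +/+ and from 0.495 to 160 in +/t (2.94 ± 1.45, edgeR adjusted p = 0.999). It was above 20 CPM in the carriers of pairs 1, 3, 4 and 5 and in no wild type. Adamts1, a protease of the ovulating follicle, had 36.2 to 109 CPM in +/+ and 41.1 to 591 in +/t, with the highest value in the carrier of pair 3 (1.06 ± 0.67, edgeR adjusted p = 0.999). In that carrier Cyp17a1, the androgen-forming enzyme of theca cells, was at 5.37 CPM against 73.1 to 800 in the other 13 libraries. The pair medians of the ovulation list were 1.27 in pair 3 and 1.19 in pair 4, and the other 5 pairs lay between -0.17 and 0.52. The stage of the cycle at collection is not in the labels, and its part was not tested. Has2, Edn2, Cyp17a1, Lhcgr and Ptgfr were picked for display after their values were seen.

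Other processes showed no called gene in edgeR, beside 0.104% called over all tested genes. Immediate early and stress genes had a median of 0.49, with 17 of 22 above 0. Their pair medians were at 0.48 to 1.17 in pairs 1, 3, 4 and 5 and from -0.23 to -0.16 in pairs 2, 6 and 8. Nr4a1, an early response nuclear receptor, had 31.7 to 412 CPM in +/+ and 91.5 to 398 in +/t (0.63 ± 0.40, edgeR adjusted p = 0.999), and Btg2, an antiproliferative gene, 33.9 to 172 and 52.4 to 630 (0.92 ± 0.48, edgeR adjusted p = 0.999). Cholesterol synthesis and uptake genes had a median of 0.16 with 17 of 19 above 0. Their pair medians ran from -0.137 to 0.775, the highest being pair 5. Hmgcs1, an early enzyme of the pathway, was at 0.20 ± 0.17 (edgeR adjusted p = 0.999). Interferon response genes had a median of 0.04, complement genes 0.06 and mitochondrially encoded genes 0.10, beside 0.01 for ribosomal protein genes.

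Markers of other tissues and of blood varied between libraries and are given beside these lists. Oviduct markers (13 of 13 tested) summed to 2300 to 4960 CPM in +/+ and 1870 to 5330 in +/t, median log2 fold change 0.04. Adipocyte markers (12 of 12) summed to 945 to 2950 and 1260 to 3660 CPM, median -0.04, with pair medians from -1.29 to 1.46. Uterus markers (3 of 8 passed the filter) summed to 83.4 to 729 and 138 to 366 CPM, median -0.42. Erythroid markers (4 of 7) summed to 34.7 to 602 and 39 to 144 CPM, median 0.09, the 602 being the wild type of pair 3. Macrophage markers (13 of 13) summed to 353 to 702 and 368 to 574 CPM, median 0.04. Lymphocyte markers (5 of 12) summed to 3.65 to 7.81 and 4.07 to 22.2 CPM, median 0.13, the 22.2 being the carrier of pair 3. In each of these lists the ranges of the genotypes overlapped. The part of these tissues in the gene lists was not tested.

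**Figure D4:**
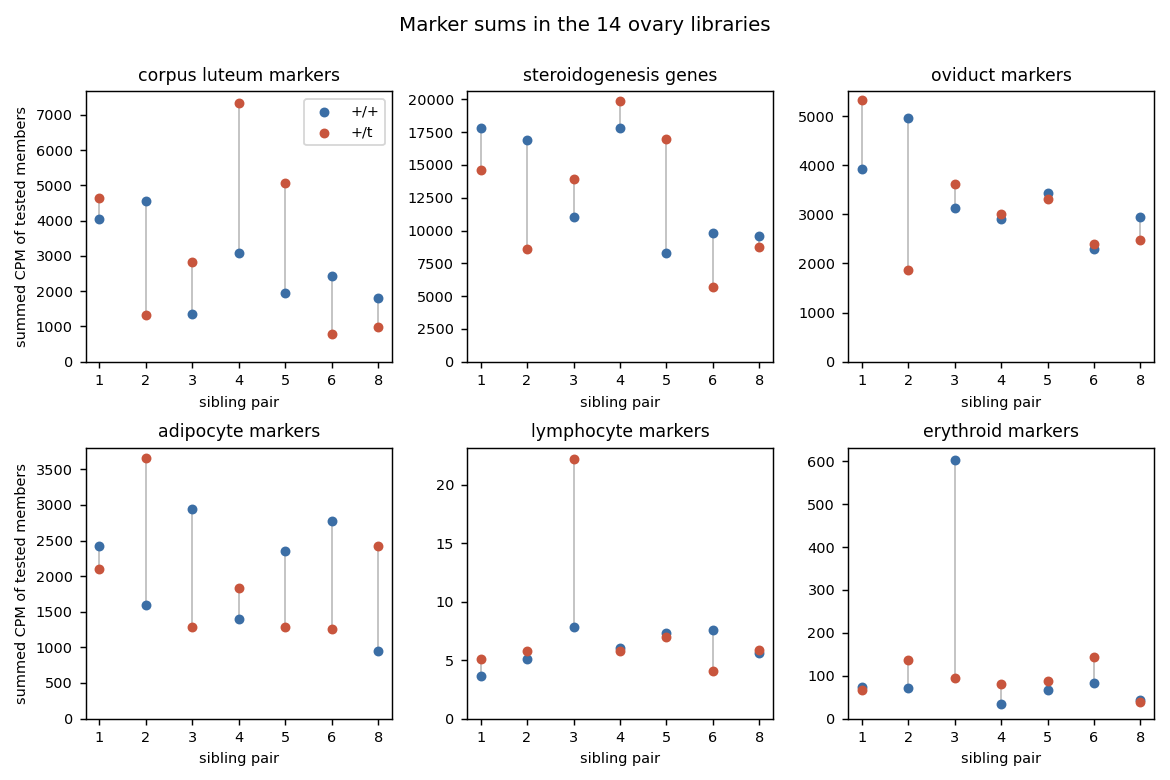
Summed CPM of the tested members of 6 lists in the 14 ovary libraries, by sister pair, on linear axes from 0; blue is +/+ and red is +/t. Corpus luteum sums range from 782 to 7340 CPM with no common direction across pairs, and single libraries of pair 3 stand apart in lymphocyte markers (22.2) and erythroid markers (602).

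The called ovary genes were then read in female brain, female liver and testis, tested in the same way. Pairs that gave both tissues numbered 6 for brain and 5 for liver. The female tissues thus come largely from the same animals as the ovaries and are not independent of them. The share of all tested genes with the same sign was not counted. Of the 16 genes, 15 were tested in female brain, where 12 were called and 15 had the sign seen in ovary; 37 of 15116 genes (0.245%) were called there. In female liver 12 were tested, 5 were called and 11 had the sign of ovary, with 13 of 12105 genes (0.107%) called. In testis 15 were tested, 9 were called and 14 had the sign of ovary, with 245 of 15509 genes (1.58%) called. Znrd1, Jmjd8 and Tulp4 passed in all 4 tissues, and Jmjd8 was at -0.60 ± 0.05 in female brain, -0.67 ± 0.08 in female liver and -0.72 ± 0.10 in testis. Mfsd4b2 passed the filter on low counts in ovary alone. Thbs2 was called in none of the others: its log2 fold change was 0.15 ± 0.08 in female brain, -0.18 ± 0.17 in female liver and 0.95 ± 0.29 in testis. No difference between ovary and another tissue was called for it.

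**Figure D5:**
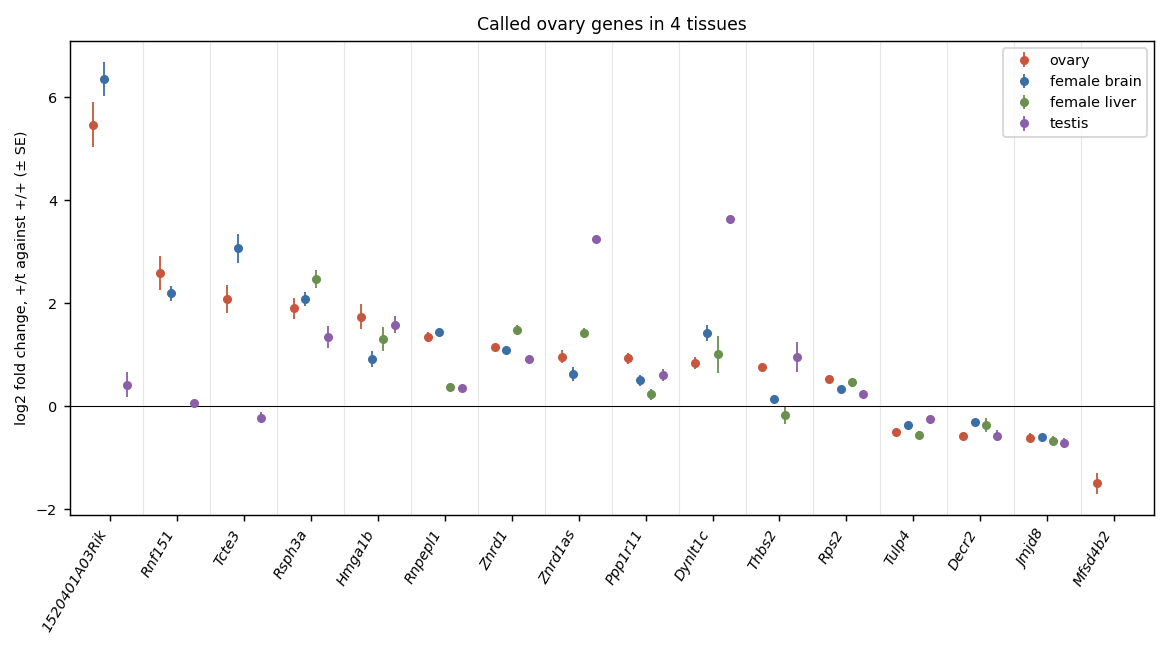
Log2 fold change of +/t against +/+ with its standard error for the 16 called ovary genes in ovary, female brain, female liver and testis, each from its own fit; a missing point did not pass the filter on low counts there. 1520401A03Rik is at 5.47 in ovary, 6.35 in female brain and 0.42 in testis, and Dynlt1c and Znrd1as exceed 3 in testis and stay below 2 elsewhere.

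Differences in the genotype effect between tissues were tested directly with the term for genotype by tissue. That test fitted a common spread per gene over both tissues, so its error can be smaller than that of ovary alone. Between ovary and female brain 6 of 16739 genes were called (0.0358%), and 2.77% had an unadjusted p under 0.05. Smoc2, a secreted matrix protein, was higher in 7 of 7 ovary carriers, with 203 to 465 CPM in +/+ and 455 to 763 in +/t (0.67 ± 0.12), and lower in carrier brains (-0.64 ± 0.08); the difference was 1.32 ± 0.15 (edgeR adjusted p = 0.00257). Gng13 differed by 2.47 ± 0.31 (edgeR adjusted p = 0.00401), Acat3, an acetyl-CoA acetyltransferase, by 1.76 ± 0.25 (0.0113 by the same test) and Synj2, a phosphoinositide phosphatase, by 0.64 ± 0.10 (0.0264). Prr18, a proline-rich protein gene, differed the other way by -1.04 ± 0.16 (0.0192), at -0.37 ± 0.14 in ovary and 0.68 ± 0.07 in brain. Gng13 overlaps Chtf18, Synj2 overlaps Serac1 and Acat3 overlaps Tcp1, each on the opposite strand.

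Between ovary and female liver 5 of 15869 genes were called (0.0315%), and 4.07% had an unadjusted p under 0.05. Acat3 was again among them: its 0.766 to 2.74 CPM in +/+ ovaries and 2.56 to 5.28 in +/t ovaries gave 1.43 ± 0.25, while in liver it fell by 0.94 ± 0.08, a difference of 2.36 ± 0.23 (edgeR adjusted p = 0.000418). Acat3 is 97.7% identical over 1477 bases to Acat2, so its reads are uncertain. Rnpepl1 was at 1.35 ± 0.09 in ovary and at 0.37 ± 0.07 in liver, a difference of 0.98 ± 0.12 (edgeR adjusted p = 0.00441). Smoc2 differed by 1.60 ± 0.22 and Rnf39, a RING finger gene beside Ppp1r11, by 2.10 ± 0.29 (edgeR adjusted p = 0.0096 for each). Fndc1, a fibronectin type III domain protein, was at -0.09 ± 0.14 in ovary and 1.74 ± 0.26 in liver, a difference of -1.82 ± 0.29 (edgeR adjusted p = 0.0367). When only the pairs with both tissues were used (6 for brain, 5 for liver), 2 genes were called in each comparison, Smoc2 and Gng13 remaining for brain, Acat3 and Rnf39 for liver.

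Between the gonads 16 of 17629 genes were called (0.0908%), and 5% had an unadjusted p under 0.05. Dynlt1c was at 0.84 ± 0.12 in ovary and 3.63 ± 0.06 in testis, a difference of -2.80 ± 0.13 (edgeR adjusted p = 1.4e-08). Znrd1as was at 0.96 ± 0.13 in ovary and 3.25 ± 0.04 in testis, a difference of -2.30 ± 0.12 (edgeR adjusted p = 2.82e-08). Slc22a3, an organic cation transporter, rose strongly in testis (5.69 ± 0.19) and was at 0.82 ± 0.21 in ovary, with 6.06 to 29.1 CPM in +/+ and 12.1 to 39.6 in +/t; the difference was -4.90 ± 0.40 (edgeR adjusted p = 8.26e-06). Ppp1cb, a catalytic subunit of protein phosphatase 1 on chromosome 5, rose in testis (1.81 ± 0.05) and had 277 to 345 CPM in +/+ and 272 to 355 in +/t ovaries (-0.01 ± 0.08), a difference of -1.83 ± 0.10 (edgeR adjusted p = 2.99e-08). In the opposite direction, Rnf151 was called in ovary at 2.59 ± 0.33 and stood at 246 CPM in +/+ and 255 in +/t testis (0.05 ± 0.03), a difference of 2.49 ± 0.24 (edgeR adjusted p = 4.77e-05). 1520401A03Rik was at 5.47 ± 0.43 in ovary and 0.42 ± 0.24 in testis, a difference of 4.99 ± 0.53 (edgeR adjusted p = 0.000162). Tcte3 was at -0.22 ± 0.11 in testis, a difference of 2.28 ± 0.27 (edgeR adjusted p = 0.00053). Acat3 was lower in testis (-0.60 ± 0.14, edgeR adjusted p = 0.0394), a difference of 2.01 ± 0.31 (edgeR adjusted p = 0.0119). Rnpepl1 was called higher in both gonads, with 0.35 ± 0.05 in testis (edgeR adjusted p = 0.000668) and a difference of 0.98 ± 0.11 (edgeR adjusted p = 0.000383). For each of these genes the genotype effect differed between the gonads by the direct test. With the common spread, the error for Rnf151 was 0.24, below its 0.33 in ovary alone, and may be too small for so scarce a gene. The testis fold changes come from males of other pairs. Ppp1cb is 100% identical over 1661 bases to Gm43312, which overlaps it on the same strand. Slc22a3 matches Plg at 100% over 422 bases and overlaps it on the opposite strand. The reads of Ppp1cb and Slc22a3 are therefore uncertain.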

How the data were processed

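The deposited values are whole-number read counts per gene, 1 table per library, per the file headers. The submitters' processing notes name STAR 2.5.1b, the build GRCm38 and featureCounts. Not given in the sources used here are the annotation release and the strand setting. Per the labels' protocols, ovary RNA was extracted with Trizol and a column kit with a DNase step, and the library kit was for stranded mRNA. Reads from a t haplotype that differ from the reference can align less well; the part of this was not tested. GENCODE M21 gave a position for 25472 of 25567 gene identifiers. The 95 without position held 0.072% to 0.08% of ovary counts. Of these genes 689 lay in the t region.

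Low genes were removed by filterByExpr (minimum count 10). TMM factors scaled the libraries, and CPM values are on that scale unless called unscaled. Genotype was tested with the edgeR 4.0.16 quasi-likelihood test (R 4.3.3, limma 3.58.1, robust estimation), the sister pair as a block, and p-values adjusted by Benjamini and Hochberg over all tested genes. Differences between tissues were tested by the genotype by tissue term, with a pair block within each tissue. Animals that gave both tissues had no term of their own. The spread of a gene was fitted over the libraries of both tissues together, although it can differ between tissues. Standard errors are the log2 fold change over the root of the F statistic. The biological coefficient of variation in ovary was 19.6%. The precision of a low gene is set by its reads, from 9343307 to 23856194 per library. The labels name the sisters, so the pair was kept as a block; deviations of sisters from their group means correlated at -0.273 to 0.398 across genes. The fits were tested on simulated data.

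Named genes (109) were all genes called in ovary, the called members and the 3 tested members with the highest CPM of each of 28 gene lists, 6 genes called in most comparisons of the series, and up to 5 genes for each test of a difference. Genes named beyond this rule are marked as such or are members of a list. The members, lists and rules were chosen with earlier results of these data known. Alternatives were DESeq2 1.42.0, relative log expression factors, no filter, a minimum count of 50, no pair block, each pair left out, ends of the t region at 35 and 45 Mb, even counts halved, only pairs with both tissues and, added after the data were seen, no robust estimation. Transcripts were compared with blastn 2.17.0 (at least 100 bases at 90% identity). Promoter sequences came from RefSeq, in which 15 of the 16 called genes matched. Rows without a gene name were absent, and no ovary library was left out. The values of 1 named gene of the lymphocyte list are not reported here.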

Additional observations from a re-analysis of the deposited data

Results flagged for a closer look

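Each genotype's 7 ovary libraries were examined for a library far from the others in 108 of the named genes. Of 216 groups looked at, 28 held such a library. The cutoff passes about 1 in 20 groups when groups are independent and values normally distributed. These groups come from the same 14 libraries, with genes that vary together, and CPM on a linear scale need not be normal. The rate by chance is therefore not known here. In the carrier of pair 3, immune genes stood apart: Ms4a1 at 7.66 CPM, Cd4 at 3.36, Cd74 at 171 and H2-Aa at 125. Adamts1 was at 591 CPM in the same library. The wild type of pair 3 had hemoglobin genes far above the other wild types, with Hbb-bs at 289 CPM, Hba-a1 at 235 and Hbb-bt at 59.9. The wild type of pair 2 was high in Hoxa10 (10.7 CPM), Ltf (624), Slc22a3 (29.1) and Gng13 (2.19). The wild type of pair 5 was high in Rpl7 (1310 CPM), Dcn (874), Ms4a1 (1.8) and mt-Cytb (5540), and that of pair 6 in Inha (3040), Cd4 (2.91) and Lyz2 (367).

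Among the other carriers, pair 6 was high in Rgs2 (491 CPM) and Tulp4 (90.3) and low in Oxtr (40.5). The carrier of pair 4 was high in Tcp1 (311 CPM) and mt-Co1 (10800), that of pair 2 in Tppp3 (140), and that of pair 1 in Ltf (289). The carrier of pair 8 was high in Greb1 (1030 CPM) and in 1520401A03Rik (21.7, with 5.28 as the next highest).

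The genotype effect differed between tissues, by the test of the difference, for the following genes, given as the ovary log2 fold change minus that of the other tissue. Against female brain the values were 1.32 for Smoc2, 2.47 for Gng13, 1.76 for Acat3, 0.64 for Synj2 and -1.04 for Prr18. Against female liver they were 0.98 for Rnpepl1, 1.60 for Smoc2, 2.36 for Acat3, 2.10 for Rnf39 and -1.82 for Fndc1. Against testis they were 2.49 for Rnf151, -2.80 for Dynlt1c, -2.30 for Znrd1as, -4.90 for Slc22a3, -1.83 for Ppp1cb, 4.99 for 1520401A03Rik, 0.98 for Rnpepl1, 2.28 for Tcte3 and 2.01 for Acat3.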

How the results depend on the processing

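With 16 genes called in ovary (13 in the t region, 3 outside), DESeq2 called 46 (37 and 9). A minimum count of 50 gave 10 (9 and 1), with fewer genes tested. Leaving out each pair in turn gave 3 to 16 in all, 2 to 15 in the t region and 1 to 2 outside; 12 of the 16 were lost without pair 1, 4 without pair 2, 10 without pair 3, 9 without pair 4, 5 without pair 5 and 13 each without pairs 6 and 8. Fewer samples enter these fits. With the t region ended at 35 Mb, 6 calls lay outside it. Without the replicate block of the pair, 18 genes were called (15 and 3), 15 of them shared; Rps2 lost its call and Amdhd2 gained one. For the difference from female brain (6), DESeq2 called 11 and the pairs with both tissues 2. For female liver (5) the counts were 9 and 2. For testis (16) DESeq2 called 36. Without the block these 3 differences had 6, 7 and 19 calls. For why DESeq2 called more, the cause was not tested.

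Relative log expression factors, no filter, halved even counts and no robust estimation (added after the data were seen) each kept all 16 calls. Halving was applied to the ovary library of pair 5 alone, so the differences between tissues were not checked for even counts. No direction of a called gene or of a called difference turned over. Of 1514 alternative values of named genes, 1428 kept their side of the threshold, 68 lost it, 10 gained it and 8 moved by more than their error; all 391 list medians stayed. Of 105 values of differences 98 stayed and 7 lost the threshold. In the shallowest library, of 9343307 counts, genes near 1 CPM rest on about 10 reads.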

Other observations

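Liver-expressed genes appeared in single ovary libraries. Alb, the albumin gene of hepatocytes, stood at 497 CPM in the wild type of pair 4 and at 0.487 to 7 CPM in the other 6 wild types, and at 47.1 and 95.5 CPM in the carriers of pairs 3 and 6 against 3.67 to 11.6 in the other 5 carriers. Plg, the plasminogen gene of the t region, also known from liver, was at 12.5 CPM in the wild type of pair 4 and at 0.073 to 0.7 CPM in the other 6 wild types. In carriers it ran from 2.08 to 6.94 CPM, so 6 of 7 pairs had the carrier higher and pair 4 did not. Its log2 fold change was 2.52 ± 0.95 (edgeR adjusted p = 0.999), while DESeq2 called it (adjusted p = 0.00153). Plg overlaps Slc22a3 on the opposite strand, so its reads are uncertain. Alb and Plg were chosen after their values were seen.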
